A study of Mus musculus with 24 samples.

Results

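The prostaglandin genes examined here are 10 genes of the mouse that encode enzymes of prostaglandin synthesis and receptors for prostaglandin E2 (PGE2). They were taken by symbol, matched to gene identifiers through the GRCm38 annotation (GENCODE M21), from the 55487 genes of a table of normalized read counts. The synthesis enzymes are Pla2g4a, Ptgs1, Ptgs2, Ptges, Ptges2, Ptges3 and Ptgis, and the receptors are Ptger1, Ptger2 and Ptger4. All 10 were listed, and 9 of them passed the minimum level for testing. Ptger2 did not.

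The RNA came from C2C12, a line of mouse myoblasts that fuse into contractile myotubes in culture. All 24 cultures were wild type, were differentiated under 5 % O2, are labelled day 5, and spent at least 2 h under either 5 % or 1 % O2. There were 4 groups of 6 biological replicates. The 5 % CTRL and 1 % CTRL groups were not stimulated, and the 5 % STIM and 1 % STIM groups received repeated bouts of electrical pulses at the same O2 level and were harvested immediately afterwards. Per the methods, the 2 h came before the stimulation, so the STIM cultures spent more than 2 h at their O2 level. Whether the CTRL cultures were held equally long is not stated there. The comparisons address how a lower O2 level changes the transcripts of resting myotubes, how contraction changes them, and how the response to contraction differs between O2 levels. A single cell line was used, and the medium was replaced around the stimulation. In bulk RNA, fewer cells of a type and less RNA per cell cannot be told apart.

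Prostaglandins are lipid signals made from arachidonic acid. Pla2g4a, cytosolic phospholipase A2, releases the fatty acid from membranes, the cyclooxygenases Ptgs1 and Ptgs2 convert it to the unstable intermediate PGH2, and terminal synthases turn PGH2 into PGE2 (Ptges, Ptges2, Ptges3) or prostacyclin (Ptgis). Ptgs1 is the form found at a steady level in many tissues, Ptgs2 is the inducible form, and in skeletal muscle PGE2 acting through Ptger4 is known to support muscle stem cells. Of the receptors, Ptger1 is coupled to calcium, and Ptger2 and Ptger4 raise cyclic AMP.

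The 3 members with the largest O2 effects are shown by the start of their gene. Each sequence covers 250 bases before and 50 bases from the RefSeq start site on (build GRCm38.p6, written 5′ to 3′ on the strand of the gene). Capitals mark 3 short motifs on either strand. The letters ACGTG or, in another form, GCGTG make up the core of hypoxia response elements, and CGTCA is the core of the site for CREB, a factor activated by calcium and cyclic AMP. Ptgs1, Ptgs2 and Ptger4 were all lower under 1 % O2. With stimulation, Ptgs2 rose at both O2 levels and Ptger4 fell under 5 % O2.
Ptgs2, chr1:150099781-150100080, plus strand: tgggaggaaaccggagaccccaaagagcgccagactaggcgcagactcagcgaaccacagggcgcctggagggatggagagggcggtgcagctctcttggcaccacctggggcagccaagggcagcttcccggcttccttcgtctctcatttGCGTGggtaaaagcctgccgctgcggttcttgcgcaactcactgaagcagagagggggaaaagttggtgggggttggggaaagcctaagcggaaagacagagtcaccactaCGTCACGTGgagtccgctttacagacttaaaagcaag
Ptgs1, chr2:36230176-36230475, plus strand: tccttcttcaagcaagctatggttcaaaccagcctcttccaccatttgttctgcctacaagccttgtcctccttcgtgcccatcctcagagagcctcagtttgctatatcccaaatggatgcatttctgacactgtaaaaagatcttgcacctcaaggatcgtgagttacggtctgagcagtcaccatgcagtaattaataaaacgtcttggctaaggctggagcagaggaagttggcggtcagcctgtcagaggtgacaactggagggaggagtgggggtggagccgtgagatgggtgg
Ptger4, chr15:5244138-5244437, minus strand: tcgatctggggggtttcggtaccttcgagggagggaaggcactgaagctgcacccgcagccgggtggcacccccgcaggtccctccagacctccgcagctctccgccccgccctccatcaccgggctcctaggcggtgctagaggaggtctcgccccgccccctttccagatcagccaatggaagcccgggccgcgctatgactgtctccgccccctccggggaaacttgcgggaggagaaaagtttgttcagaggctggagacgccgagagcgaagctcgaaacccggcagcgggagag
In the Ptgs2 window, CACGTG began at position 17, counted from 1 at the start site, and gave a match to ACGTG on each strand. CGTCA began at position 14 and shared its last 2 letters with CACGTG. The letters GCGTG began at position -98, and the palindrome TTGCGCAA, a site of C/EBP factors that is left in lower case, began at position -69. Neither the Ptgs1 nor the Ptger4 window held any of the 3 capitalised motifs, while Ptger4 held CCAAT at position -75. Of all 32851 promoter windows of this length, 19.6 % held ACGTG, 32.4 % GCGTG, 20.8 % CGTCA, 7.15 % CACGTG, 37.4 % CCAAT and 0.183 % TTGCGCAA. TGACGTCA (1.79 % of windows), TGANTCA (7.81 %) and TATAAA (13.6 %) were searched too and were found in none of these 3 windows. The letters were chosen after the sequences were seen, and a match is a description of the letters only. Promoters of 8 of the 10 members were listed, with 9 windows in all. Ptger1 and Ptgis had none. The motifs were not particular to Ptgs2. The window of Ptges2, which was called in no comparison, held CACGTG from position -77 and GCGTG from position -96. GCGTG also occurred in windows of Ptges, Ptges3 and Pla2g4a, and CGTCA in that of Ptges3. None of these members was called with O2 at rest, while Pla2g4a was called lower in 1 % STIM compared with 5 % STIM.

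The libraries held 26541858 to 28173745 reads. Of 8 myotube markers (Myog, Mymk, Myh3, Myh8, Ckm, Acta1, Tnnt3, Ttn), all were present in every group, with summed normalized counts from 371398 to 478468. In 1 % CTRL compared with 5 % CTRL, 6 of the 8 were lower and none was higher. The summed level of the myoblast markers Pax7, Myf5 and Myod1 was 3394 to 4001 in 5 % CTRL and 2002 to 2739 in 1 % CTRL, and 2831 to 3399 in 5 % STIM compared with 1611 to 2087 in 1 % STIM, so it moved with both O2 and stimulation, with 2 of the 3 genes higher and 1 lower under 1 % O2. The 4 fibroblast and fibro-adipogenic markers (Pdgfra, Ly6a, Dpt, Pi16) summed to 1693 to 2015 in 5 % CTRL and 1363 to 1606 in 1 % CTRL, and to 1767 to 1857 in 5 % STIM and 1380 to 1582 in 1 % STIM. The 5 leukocyte markers (Ptprc, Cd68, Adgre1, Csf1r, Itgam) summed to 64.5 to 110 in 5 % CTRL and 57.6 to 74.8 in 1 % CTRL, and to 65.4 to 80.8 in 5 % STIM and 61.0 to 80.9 in 1 % STIM, with 1 of 5 at 0 in every group. Of the 3 tested, Csf1r and Itgam were lower in 1 % CTRL than in 5 % CTRL and none was higher. The 3 endothelial markers summed to 3.14 to 15.2 over all libraries. These levels move with the O2 results given next, and their part in them was not tested.

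Per length of exon, the cyclooxygenases and Ptges3 stood highest. In 5 % CTRL the mean level was 1331 ± 55.2 normalized counts per kb (SD, n = 6) for Ptges3, 1327 ± 109 for Ptgs2 and 1079 ± 44.6 for Ptgs1. These first places were not separated in full, since the Ptgs2 libraries (1215 to 1480 per kb) overlapped those of Ptges3 (1255 to 1415 per kb), while Ptgs1 lay lower at 1034 to 1123 per kb. Ptgis followed with 477 ± 19.2 per kb. Pla2g4a had 86.4 ± 7.74 per kb, Ptges2 64.3 ± 5.68 and Ptger4 50.6 ± 2.53, and the libraries of Pla2g4a (73.4 to 94.6 per kb) just missed those of Ptges2 (57.8 to 73.0 per kb). Ptger1, whose count is uncertain as given below, had 19.5 ± 3.68 per kb, and Ptges had 2.27 ± 0.70.
Among the 14541 genes tested, these levels placed Ptges3 and Ptgs2 at the 94.0th and 93.9th percentile in 5 % CTRL and Ptges at the 2.93rd. Ptgs2 was the highest member in 5 % STIM, with 1954 ± 200 per kb compared with 1342 ± 55.5 per kb for Ptges3, and its lowest library (1592 per kb) lay above the highest of Ptges3 (1412 per kb).

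**Figure D1:**
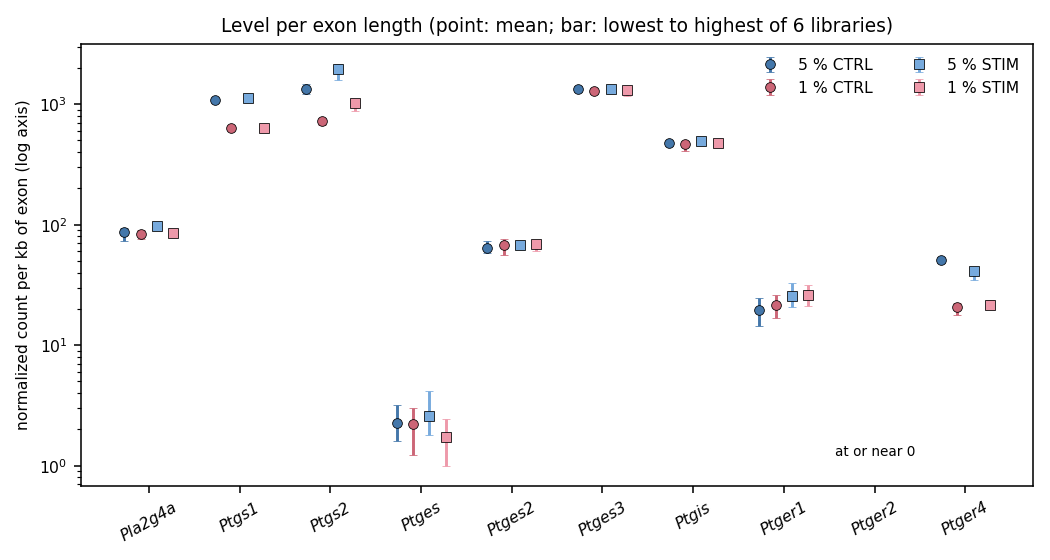
Normalized count per kb of exon (log axis) of the 10 members in the 4 groups, as the mean (point) with the lowest and highest of 6 libraries (bar). Ptges3, Ptgs2 and Ptgs1 lie highest and Ptges lowest among those drawn. Ptger2 is at or near 0 and is not drawn.

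Under 1 % O2 without stimulation, both cyclooxygenases and the PGE2 receptor Ptger4 fell, while cytosolic phospholipase A2 and the terminal synthases were not called. Of 9 members tested in 1 % CTRL compared with 5 % CTRL, 3 passed an adjusted p-value of 0.05, all 3 lower, and in all 3 every 1 % CTRL library lay below every 5 % CTRL library. Over all genes tested, 59.9 % were called in this comparison (29.4 % higher, 30.5 % lower), and 18.2 % were higher and 19.9 % lower without overlap between libraries, so the number of members called was not above the background. The median log2 fold change of the 9 members was -0.03, and that of all genes 0.00.

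Ptgs1 lies on chromosome 2 (GRCm38, chr2:36230426-36252272, plus strand). Its normalized counts were 4018, 4192 and 4363 (lowest, median, highest) in 5 % CTRL and 2369, 2460 and 2543 in 1 % CTRL. Every library under 1 % O2 was therefore lower than every library under 5 % O2, and Ptgs1 fell by 41.2 % (log2 fold change -0.77, SE 0.03, limma adjusted p = 3.06e-20). Its spread was small, with a coefficient of variation of 4.13 % in 5 % CTRL and 2.44 % in 1 % CTRL, where counting error alone gives 1.57 % and 1.98 %.

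Ptgs2, on chromosome 1 (chr1:150100031-150108227, plus strand), had normalized counts of 5564, 5938 and 6776 in 5 % CTRL and 3085, 3314 and 3487 in 1 % CTRL. The highest library under 1 % O2 again lay below the lowest under 5 % O2. Ptgs2 fell by 45.5 % (log2 fold change -0.88, SE 0.07, limma adjusted p = 1.23e-10). Per kb, Ptgs2 exceeded Ptgs1 by a ratio of 1.23 ± 0.14 (SD, n = 6) in 5 % CTRL and 1.14 ± 0.04 in 1 % CTRL, and the ratios of the libraries (1.08 to 1.43 and 1.07 to 1.18) overlapped. The ratio was not tested.

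Ptger4, on chromosome 15 (chr15:5206661-5244187, minus strand), fell most among the members. Its normalized counts were 319, 330 and 361 in 5 % CTRL and 119, 139 and 149 in 1 % CTRL. The groups lay far apart, and Ptger4 fell by 58.9 % (log2 fold change -1.28, SE 0.07, limma adjusted p = 3.24e-17). Of its exon sequence, 16.5 % overlaps genes on the opposite strand, Gm15937 with a mean of 1.70 normalized counts and the end of Ttc33. Ttc33, at 1003 ± 34.7 in 5 % CTRL and 1042 ± 41.3 in 1 % CTRL (SD, n = 6), did not pass the test (log2 fold change 0.05, adjusted p = 0.234), and only 1.23 % of the Ptger4 exon length overlaps it.

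**Figure D2:**
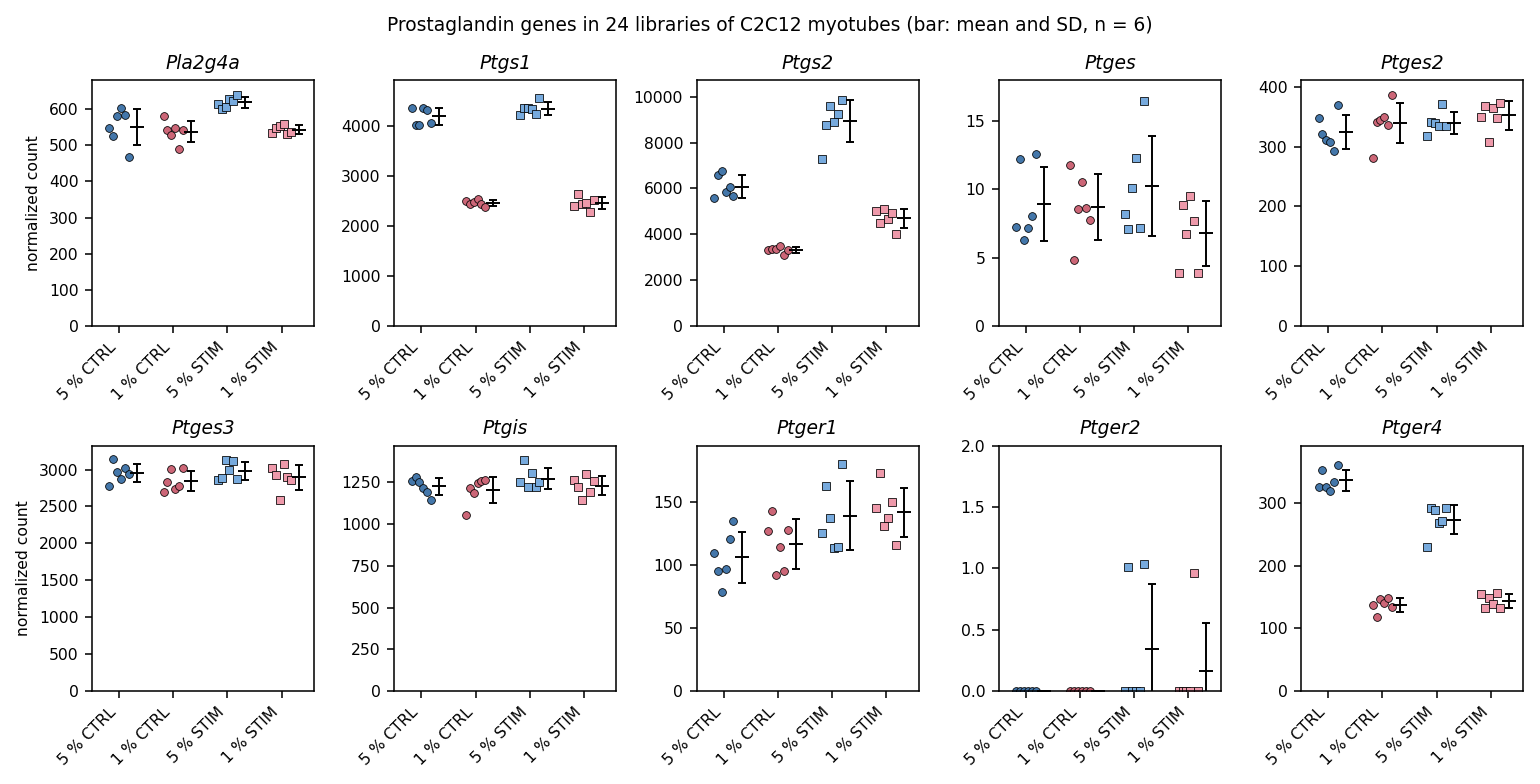
Normalized counts of each member in the 24 libraries (points), with the mean and SD of 6 libraries beside them (bar). Each panel has its own axis from 0. Ptgs1, Ptgs2 and Ptger4 are lower in 1 % CTRL than in 5 % CTRL without overlap, and Ptgs2 alone of the members tested is higher without overlap after stimulation at both O2 levels.

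The other members were not called with O2 at rest. Pla2g4a (chr1:149829618-149961290, minus strand) had 469, 564 and 605 normalized counts in 5 % CTRL and 490, 542 and 580 in 1 % CTRL, which overlapped widely (log2 fold change -0.03, 95 % interval -0.13 to 0.07, limma adjusted p = 0.594). Ptges3 (chr10:128058954-128077272), a cytosolic PGE2 synthase that is also the HSP90 co-chaperone p23, had 2783, 2949 and 3138 in 5 % CTRL and 2702, 2808 and 3018 in 1 % CTRL, again with overlap (log2 fold change -0.05, interval -0.13 to 0.02, adjusted p = 0.238). Ptgis (chr2:167191805-167240604) had 1146, 1235 and 1278 and then 1054, 1229 and 1264 (log2 fold change -0.03, interval -0.11 to 0.06, adjusted p = 0.600).
Any change of these 3 larger than about 10 % lay outside the interval. Ptges2 (chr2:32395896-32405772), the membrane-associated PGE2 synthase, had 292, 316 and 369 in 5 % CTRL and 281, 343 and 387 in 1 % CTRL, also overlapping (log2 fold change 0.06, adjusted p = 0.426). Of the Ptges3 exon sequence, 18.5 % of 75-base words is shared with pseudogenes, chiefly Ptges3-ps (mean of 516 normalized counts), so its count is uncertain to that extent. Ptger1 had 78.6, 104 and 135 in 5 % CTRL and 92.3, 120 and 143 in 1 % CTRL, which overlapped (log2 fold change 0.14, adjusted p = 0.381).

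Ptges (chr2:30889471-30929863), the inducible microsomal PGE2 synthase that is usually paired with Ptgs2, was close to the detection limit. Its normalized counts were 6.29, 7.66 and 12.6 in 5 % CTRL and 4.80, 8.60 and 11.8 in 1 % CTRL. After stimulation they were 7.10, 9.13 and 16.5 in 5 % STIM and 3.90, 7.22 and 9.53 in 1 % STIM, and all groups overlapped. With 4 to 16 reads in a library, its coefficient of variation (27.8 % to 35.9 %) was about that of counting error alone (31.6 % to 37.8 %). It was called in no comparison, and its 95 % interval for 1 % CTRL compared with 5 % CTRL (-0.60 to 0.54 on the log2 scale) does not exclude a sizeable change. The lowest adjusted p was 0.10, for 1 % STIM compared with 5 % STIM (log2 fold change -0.54, SE 0.28).

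Ptger2 (chr14:44988195-45003820, plus strand) was listed at 0 in all 12 unstimulated libraries. There was 1 read in each of 2 libraries of 5 % STIM and in 1 library of 1 % STIM. A count of 0 in 163906867 reads of 5 % CTRL allows up to 3 reads, and this limit covers counting error only. No difference was detectable at this depth. The fourth PGE2 receptor gene, Ptger3, was close to this, with 0 to 3.11 normalized counts in any library.

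Electrical stimulation under 5 % O2 raised Ptgs2 and, by less, Pla2g4a, and lowered Ptger4. Ptger1, whose count is uncertain, was called higher by a narrow margin. Of the 9 members tested in 5 % STIM compared with 5 % CTRL, 4 were called, 3 higher and 1 lower. Over all genes, 21.4 % were called (9.44 % higher, 12 % lower). Without overlap between the groups, 1 member was higher (Ptgs2) and 1 lower (Ptger4), compared with 5.64 % and 5.44 % of all genes. The median log2 fold change was 0.07 over the members and -0.01 over all genes. The 5 % CTRL libraries serve as the control in this comparison and in that of O2 at rest, so the values of both are not independent.

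Ptgs2 had 7290, 9074 and 9876 normalized counts in 5 % STIM, all above the highest library of 5 % CTRL (6776). The rise was 46.9 % (log2 fold change 0.56, SE 0.07, limma adjusted p = 1.71e-06). Ptgs1 had 4229, 4352 and 4567, which overlapped with 5 % CTRL (log2 fold change 0.05, 95 % interval -0.01 to 0.12, adjusted p = 0.256). Per kb, the ratio of Ptgs2 to Ptgs1 was 1.74 ± 0.15 (SD, n = 6) in 5 % STIM, and its range of 1.46 to 1.87 lay above that of 5 % CTRL, at most 1.43. Ptgs2 thereby made up 63.5 % ± 2.18 of the summed cyclooxygenase level per kb in 5 % STIM compared with 55.1 % ± 2.77 in 5 % CTRL.

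Pla2g4a had 600, 620 and 640 normalized counts in 5 % STIM compared with 469, 564 and 605 in 5 % CTRL. The groups overlapped by their nearest libraries only, and the rise was 12.6 % (log2 fold change 0.17, SE 0.05, limma adjusted p = 0.0111). Pla2g4a and Ptgs2 are neighbours on chromosome 1 on opposite strands, 138740 bases apart. The neighbouring gene Ptgs2os ends 67 bases before Ptgs2, whose exons no other gene overlaps. Ptgs2os had a mean of 20.4 ± 4.70 normalized counts in 5 % CTRL and 23.0 ± 4.51 in 5 % STIM and was called in no comparison. Another neighbouring gene, Ptgs2os2, had 11.8 ± 2.91 in 5 % CTRL and 21.8 ± 2.14 in 1 % CTRL (log2 fold change 0.87, SE 0.23, limma adjusted p = 0.00128). That is the opposite direction to Ptgs2 under 1 % O2, and Ptgs2os2 had 11.7 ± 4.30 in 5 % STIM.

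Ptger1 (chr8:83666678-83672753, plus strand) had 113, 131 and 181 normalized counts in 5 % STIM, compared with at most 135 in 5 % CTRL. The groups overlapped, and the difference of 30.7 % passed the threshold narrowly (log2 fold change 0.39, SE 0.13, limma adjusted p = 0.0325). It did not pass without the filter on low values (adjusted p = 0.0508), nor without 5 % CTRL replicates 2, 3 or 4 or 5 % STIM replicates 2, 3 or 6, left out one at a time (adjusted p up to 0.102). Of its exon sequence, 71.0 % overlaps a gene on the opposite strand. Its count is uncertain, since reads of overlapping genes cannot be told apart without use of the strand.

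Ptger4 had 231, 280 and 293 normalized counts in 5 % STIM, all below the lowest library of 5 % CTRL (319). Ptger4 fell by 18.7 % (log2 fold change -0.30, SE 0.07, limma adjusted p = 0.00170). Ttc33 rose at the same time (log2 fold change 0.20, adjusted p = 0.000282), the opposite direction to Ptger4. The ratio of Ptger4 to Ptger1 per kb was 2.67 ± 0.47 (SD, n = 6) in 5 % CTRL and 1.65 ± 0.26 in 5 % STIM, and the libraries did not overlap (2.20 to 3.41 and 1.33 to 1.94). It carries the uncertainty of the Ptger1 count.

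In 5 % STIM the terminal synthases were not called. Ptges2 had 318, 337 and 372 normalized counts, Ptges3 2856, 2941 and 3131, and Ptgis 1219, 1250 and 1382. All overlapped with 5 % CTRL, with log2 fold changes of 0.07, 0.01 and 0.05 and adjusted p-values of 0.532, 0.873 and 0.406.

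Under 1 % O2, stimulation raised Ptgs2 and no other member was called. That is 1 of 9 members tested in 1 % STIM compared with 1 % CTRL, where 22.3 % of all genes were called (11.5 % higher, 10.8 % lower). The member called was higher without overlap, as were 5.29 % of all genes, while 5.91 % were lower without overlap. The median log2 fold change was 0.03 over the members and 0.00 over all genes. Ptgs2 had 4010, 4797 and 5101 normalized counts in 1 % STIM, above all libraries of 1 % CTRL (at most 3487), and the rise was 41.9 % (log2 fold change 0.50, SE 0.07, limma adjusted p = 5.25e-06). The ratio of Ptgs2 to Ptgs1 per kb was 1.63 ± 0.20 (SD, n = 6) in 1 % STIM, again without overlap with 1 % CTRL (1.35 to 1.85 and 1.07 to 1.18).
Ptgs1 had 2272, 2453 and 2640 normalized counts in 1 % STIM and overlapped with 1 % CTRL (log2 fold change -0.01, 95 % interval -0.07 to 0.06, adjusted p = 0.935). Ptger4 had 132, 144 and 157, Pla2g4a 530, 543 and 560, and Ptger1 116, 141 and 173. These 3 also overlapped with 1 % CTRL (log2 fold changes 0.06, 0.02 and 0.29, adjusted p = 0.593, 0.874 and 0.115). Ptges2 had 308, 358 and 374, Ptges3 2592, 2912 and 3072, and Ptgis 1145, 1240 and 1298, with log2 fold changes of 0.05, 0.02 and 0.03 (adjusted p = 0.628, 0.729 and 0.652).

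**Figure D3:**
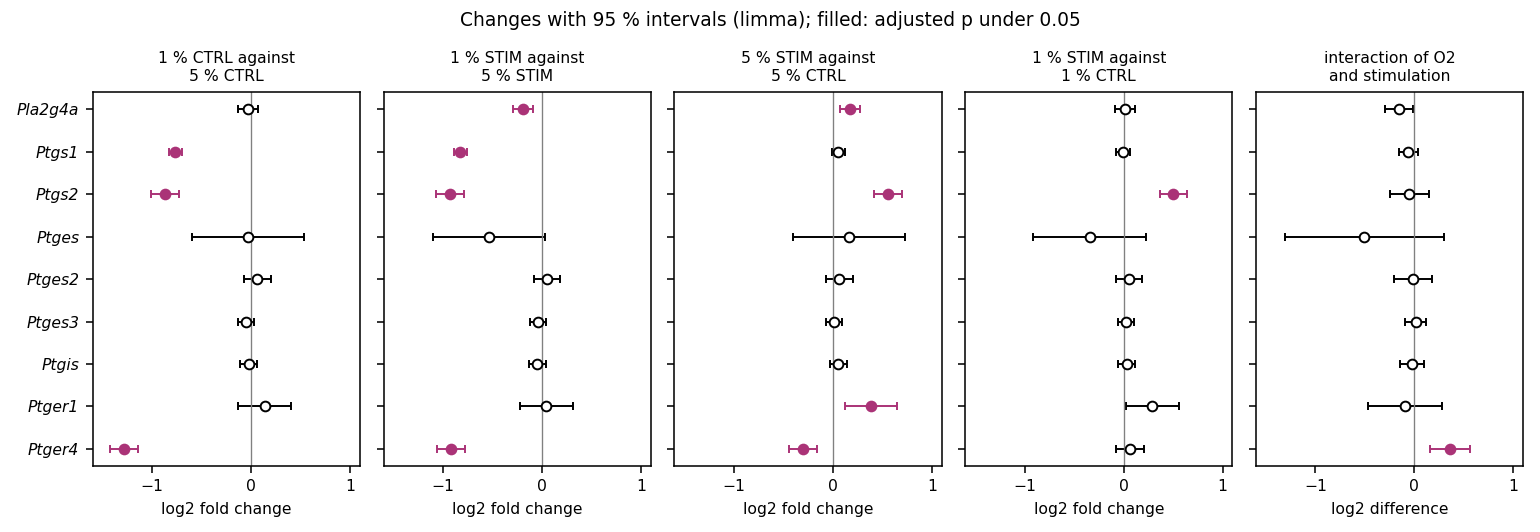
log2 fold changes of the 9 members tested (point) with 95 % intervals from limma (bar) in the 4 comparisons, and their differences in response in the panel of the interaction. Filled points passed an adjusted p of 0.05. Ptgs1, Ptgs2 and Ptger4 lie left of 0 in both comparisons of O2, and Ptgs2 lies right of 0 in both comparisons of stimulation.

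After stimulation, the members that were lower under 1 % O2 at rest were lower again, and Pla2g4a was also called lower. The difference between the O2 effects on Pla2g4a at rest and after stimulation was not called (-0.16 on the log2 scale, limma adjusted p = 0.160). Of 9 members tested in 1 % STIM compared with 5 % STIM, 4 were called, all 4 lower and without overlap. In this comparison 57.4 % of all genes were called (29 % higher, 28.4 % lower), and 18.7 % were lower without overlap. The median log2 fold change was -0.19 over the members and 0.00 over all genes. Both STIM groups also enter the comparisons of stimulation, so these values are not independent of them. From the counts given for 5 % STIM and 1 % STIM, Ptgs1 fell by 43.6 % (log2 fold change -0.83, SE 0.03, limma adjusted p = 5.16e-21), Ptgs2 fell by 47.4 % (log2 fold change -0.93, SE 0.07, adjusted p = 5.57e-11) and Ptger4 fell by 47.1 % (log2 fold change -0.92, SE 0.07, adjusted p = 2.42e-13). Pla2g4a, at 600 to 640 in 5 % STIM and 530 to 560 in 1 % STIM, fell by 12.2 % (log2 fold change -0.19, SE 0.05, adjusted p = 0.00153). Ptger1, Ptges2, Ptges3 and Ptgis were not called, with log2 fold changes of 0.04, 0.05, -0.04 and -0.05 and adjusted p-values of 0.805, 0.524, 0.375 and 0.344.
Stimulated Ptgs2 under 1 % O2 remained below the level of resting myotubes under 5 % O2. Its mean in 1 % STIM was 77.4 % of that in 5 % CTRL, and its highest library (5101) lay below the lowest of 5 % CTRL (5564), a description without a test. The corresponding means were 58.6 % for Ptgs1, 42.8 % for Ptger4 and 98.5 % for Pla2g4a.
By the counts, which are uncertain for Ptger1, the order of the receptors per kb changed with O2. Ptger4 exceeded Ptger1 in every library of 5 % CTRL and 5 % STIM, was about level with it in 1 % CTRL (ratio 1.01 ± 0.25, SD, n = 6; libraries 0.683 to 1.31), and lay below it in every library of 1 % STIM (0.845 ± 0.12; 0.626 to 0.938).

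The response to stimulation differed between O2 levels for 1 member. The interaction, the log2 response under 1 % O2 minus that under 5 % O2, was called for Ptger4 (0.36, SE 0.10, limma adjusted p = 0.0139), which fell with stimulation under 5 % O2 and had a log2 fold change of 0.06 under 1 % O2. Over all genes, 11.3 % had a called interaction (5.88 % higher, 5.43 % lower), so 1 of 9 members is near the background, and the median was -0.05 over the members and 0.01 over all genes. For Ptgs2 the difference was -0.05 (95 % interval -0.25 to 0.15, adjusted p = 0.795), so the relative rise was not shown to differ and a difference of up to 0.25 is within the interval. In normalized counts, its mean rose from 6079 ± 499 to 8949 ± 917 (SD, n = 6) under 5 % O2 and from 3306.5 ± 131 to 4704 ± 412 under 1 % O2. Pla2g4a, called after stimulation under 5 % O2 and not under 1 % O2, had an interaction of -0.16 (interval -0.30 to -0.01) that did not pass the correction (limma adjusted p = 0.160). That of Ptger1 was -0.09 (interval -0.47 to 0.28, adjusted p = 0.801).

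**Figure D4:**
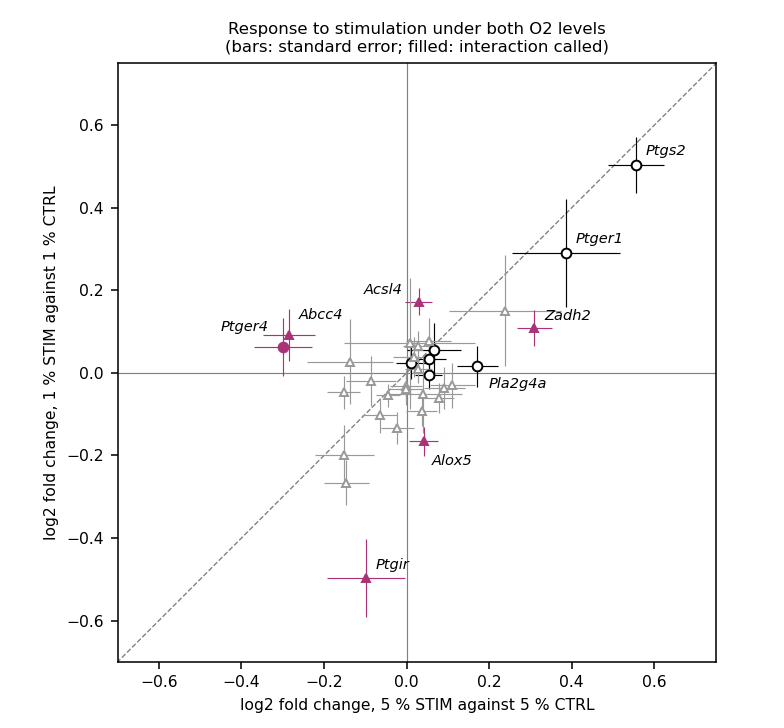
log2 fold change with stimulation under 5 % O2 (x axis) and under 1 % O2 (y axis) for 8 members (circles) and 26 other prostanoid pathway genes (triangles) with a standard error under 0.2. Bars are standard errors, filled points have a called interaction, and the dashed line marks equal responses. Ptgs2 lies near the line at the upper right, and Ptger4 lies left of it with Abcc4.

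The genes whose pattern over the 24 libraries was most like that of Ptgs2 were Pvr (Pearson r = 0.984 on log2 values), Tgif1 (0.976), Mthfd2 (0.976), Glce (0.973) and Cdr2l (0.972), out of 10794 genes with a mean of at least 100. Pvr encodes a cell surface receptor of the nectin family, Tgif1 a homeobox repressor, and Mthfd2 a mitochondrial enzyme of folate metabolism. Tgif1, for example, had group means of 2268 and 3148 normalized counts without and with stimulation under 5 % O2, and of 1127 and 1691 under 1 % O2. Among the members, r with Ptgs2 was 0.846 for Ptgs1, 0.779 for Ptger4, 0.668 for Pla2g4a and at most 0.393 for the others. The libraries share the 4 groups and their scaling, so these values describe the pattern only.

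Around the members, 63 further genes of the prostanoid and leukotriene pathways were listed, of which 36 were tested. In 1 % CTRL compared with 5 % CTRL, 21 of the 36 were called, 16 higher and 5 lower, a share near the 59.9 % of all genes, with a median log2 fold change of 0.06. Of 27 listed phospholipases and other genes that release or handle arachidonate, 16 were tested, of which 9 rose, 3 fell and 4 were not called, where 29.4 % of all genes were called higher and 30.5 % lower. Their median log2 fold change was 0.14. Pla2g15, the lysosomal phospholipase A2, rose from 456 ± 22.5 to 720 ± 50.9 normalized counts (SD, n = 6; log2 fold change 0.66, SE 0.05, limma adjusted p = 1.75e-12) without overlap. Pla2g4c, a membrane-bound relative of Pla2g4a, rose from 3.26 ± 0.79 to 15.3 ± 5.41 (log2 fold change 1.90, SE 0.29), and Pla2g2e, a secreted phospholipase A2, from 13.6 ± 4.35 to 23.0 ± 4.08 (0.75, SE 0.21), both at low levels. Acsl4, which couples arachidonate to coenzyme A, was the most lowered of the list, from 7565 ± 330 to 5521 ± 310 (log2 fold change -0.46).

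Of the 6 other prostanoid receptors listed, 3 were tested, and these 3 were higher under 1 % O2 at rest, as were 29.4 % of all genes. The 3 not tested lay under the minimum level, among them Ptger3, with a mean of 1.72 normalized counts in 5 % CTRL and 0.160 in 1 % CTRL, where 5 of 6 libraries were at 0. Ptgdr2, the second receptor of PGD2, rose from 0 to 4.09 normalized counts in 5 % CTRL to 4.79 to 15.2 in 1 % CTRL (log2 fold change 1.62, SE 0.41, limma adjusted p = 0.000959). Ptgfr, the receptor of PGF2α, rose from 7.25 to 12.6 to 14.4 to 29.1 (0.82, SE 0.26, adjusted p = 0.00763). Ptgir, the prostacyclin receptor, rose from a mean of 93.2 ± 12.9 to 110 ± 8.26 (0.25, SE 0.09, adjusted p = 0.0249). The first 2 rest on few reads. No 5 % CTRL library of Ptgdr2 reached the minimum of 10 normalized counts, so it was tested only through the other groups. That all 3 were higher is therefore set in part by the minimum level.
Of the 7 genes of breakdown and transport, 2 rose and 1 fell, where 29.4 % of all genes were called higher and 30.5 % lower. The same shares apply to the synthases and the lipoxygenase branch below. Hpgd, the dehydrogenase that starts prostaglandin inactivation, fell from 25.9 ± 9.49 to 11.1 ± 4.61 normalized counts (log2 fold change -1.18, SE 0.26, limma adjusted p = 0.000207) without overlap. Slco3a1, a prostaglandin transporter, and Zadh2, a prostaglandin reductase, rose (log2 fold changes 0.38 and 0.35). Of the 6 other prostanoid synthases tested, Cbr1, a carbonyl reductase that can convert PGE2, rose (0.27) and 5 were not called. Of 4 tested genes of the lipoxygenase branch, Alox5ap, which presents arachidonate to the lipoxygenase Alox5, fell from 107 ± 9.85 to 70.0 ± 8.88 (log2 fold change -0.62) and Alox5 rose (0.13).

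**Figure D5:**
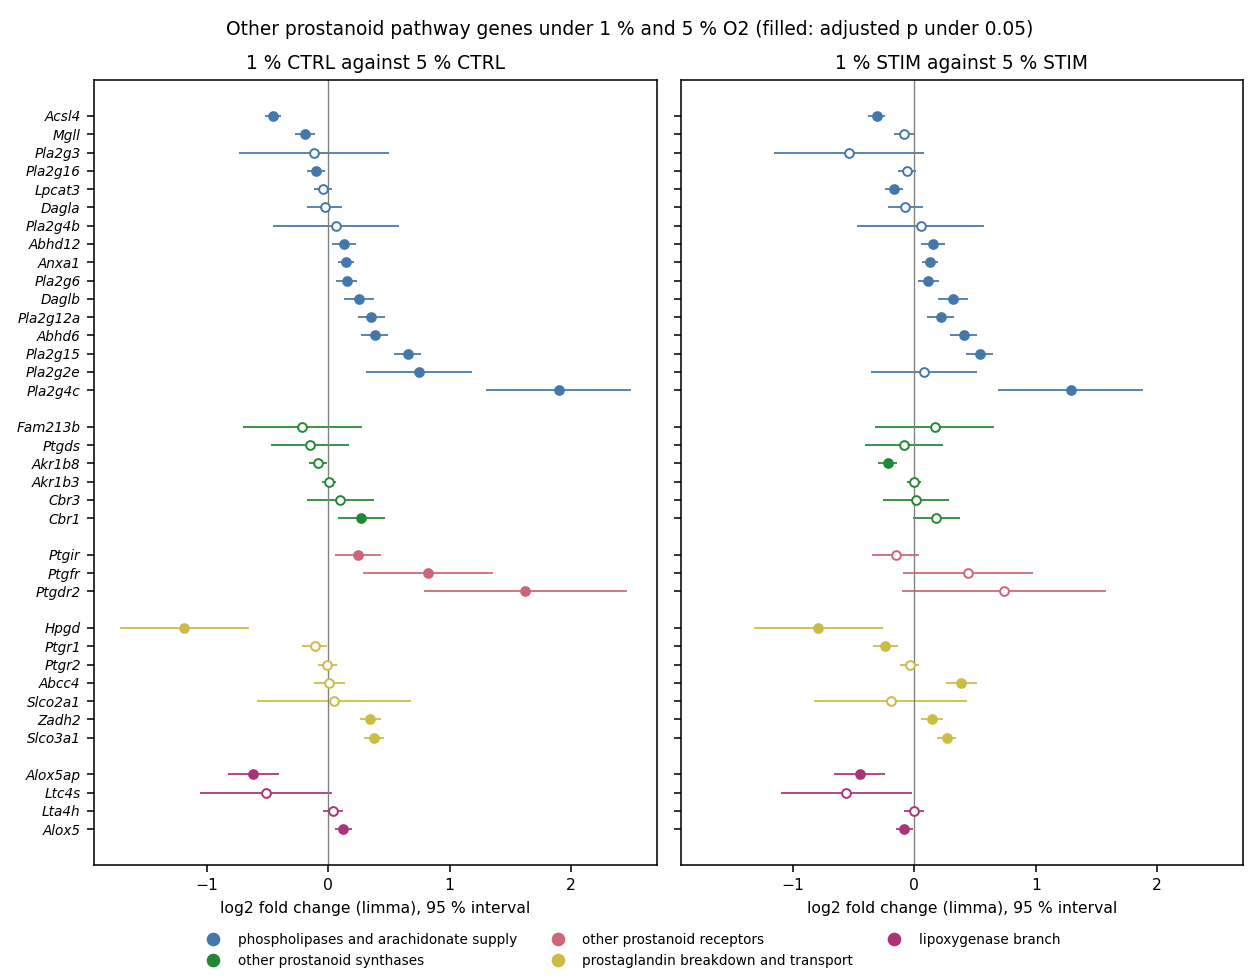
log2 fold changes (point) with 95 % intervals (bar) of the 36 other pathway genes tested, grouped by list, in 1 % CTRL compared with 5 % CTRL and in 1 % STIM compared with 5 % STIM. Filled points passed an adjusted p of 0.05. Pla2g15 and Pla2g4c lie right of 0 and Acsl4, Hpgd and Alox5ap left of 0 in both panels.

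After stimulation, 18 of the 36 were called in 1 % STIM compared with 5 % STIM, 11 higher and 7 lower, where 57.4 % of all genes were called (29 % higher, 28.4 % lower). They included Pla2g4c (log2 fold change 1.29), Pla2g15 (0.54) and Abhd6 (0.41), a lipase of monoacylglycerols, as well as Hpgd (-0.79), Alox5ap (-0.45) and Akr1b8 (-0.22). Pla2g4c was tested only through the 1 % O2 groups. None of the 3 other receptors was called there. The prostaglandin exporter Abcc4 was higher (0.39) and Slco3a1 was higher (0.27).
In 5 % STIM compared with 5 % CTRL, 4 of the 36 were called, compared with 21.4 % of all genes. Higher were Ptgdr2 (log2 fold change 1.13, SE 0.41, limma adjusted p = 0.0463) and Zadh2 (0.31), and lower were Abcc4 (-0.28) and Mgll, the monoacylglycerol lipase (-0.15). No 5 % CTRL library of Ptgdr2 reached the minimum level. In 1 % STIM compared with 1 % CTRL, 6 of the 36 were called, compared with 22.3 % of all genes. Ptgir fell from 110 ± 8.26 to 77.9 ± 8.33 normalized counts without overlap (log2 fold change -0.50, SE 0.09, adjusted p = 0.000124), Pla2g15 (-0.27), Dagla (-0.20), Alox5 (-0.17) and Slco3a1 (-0.13) also fell, and Acsl4 rose (0.17).
The interaction was called for 5 of the 36, a share near the 11.3 % of all genes. It was positive for Abcc4 (0.38, SE 0.09, limma adjusted p = 0.00457) and Acsl4 (0.14) and negative for Ptgir (-0.40, SE 0.13, adjusted p = 0.0480), Alox5 (-0.21) and Zadh2 (-0.20). Abcc4 fell with stimulation under 5 % O2, from 370 ± 34.2 to 304 ± 28.1 normalized counts, and had 372 ± 23.9 and 397 ± 17.9 in 1 % CTRL and 1 % STIM. When a single library was left out, between 2 and 5 of these interactions were called.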

How the data were processed

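Per the methods, the authors extracted total RNA from 24 cultures, made stranded mRNA libraries and sequenced single-end reads. They checked the reads with FastQC 0.11.7, aligned them to GRCm38 with STAR 2.5.4b and counted with RSEM 1.3.0 at default settings, which do not use the strand. The authors deposited a signal per gene, the RSEM count after division by the DESeq2 size factor of the library (0.955 to 1.05). A second file, which holds the authors' own fold changes and p-values, was not used.

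Whole reads were recovered from the step of each library (100 % of values whole within 0.01 read). The 14541 genes that reached 10 normalized counts in 6 or more libraries were tested with limma 3.58.1 on log2(normalized count + 1), with all 4 groups in 1 fit (trend and robust), and Benjamini-Hochberg adjusted p-values under 0.05 were called. Fold changes on this scale understate those of low genes. The members, lists and tests were chosen with earlier results of these data known. All 10 members are named, plus up to 3 called genes of each list with the largest change in a comparison and the 5 genes most like Ptgs2.

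Levels per kb used the union exon length of GENCODE M21. The main fit did not pair libraries by replicate number. On simulated data for 5 % STIM compared with 5 % CTRL (14541 genes), 98 % of genes changed by 1 on the log2 scale and 91 % of those changed by 0.5 were recovered. Alternatives were another pseudocount (10), no filter, rescaled libraries, the compared groups alone, a replicate block, edgeR 4.0.16 and DESeq2 1.42.0 and voom on whole reads, and leaving out each library. Tests measure the spread between cultures of 1 cell line. Figures were drawn with matplotlib 3.10.9. The values of 1 gene that bear on the count of Ptger1 are not reported here.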

Additional observations from a re-analysis of the deposited data

Results flagged for a closer look

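Ptger2 had a library apart from the rest of its group, 1 % STIM replicate 5 with a normalized count of 0.963, which is a single read against 0 in the other 5 libraries. It was the only such library in the 38 member groups examined. With the other 5 libraries at 0, any single read stands apart, so the flag carries no information on this gene. The response of Ptger4 to stimulation differed between O2 levels, with an interaction of 0.36 on the log2 scale (limma adjusted p = 0.0139). Its groups fell without overlap under 5 % O2 and overlapped under 1 % O2, where its level before stimulation was 138 ± 10.9 normalized counts compared with 336 ± 16.8 under 5 % O2 (SD, n = 6).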

How the results depend on the processing

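Every call of a member listed in the report kept its direction and its side of the threshold under the other settings and tests listed in the methods except for Ptger1 after stimulation under 5 % O2, which was lost without the filter (adjusted p = 0.0508), and Ptgs1 in the same comparison became called with libraries rescaled to the same total (log2 fold change 0.085, limma adjusted p = 0.0483). Counts of members called stayed at 3, 1, 4 and 1 for 1 % CTRL compared with 5 % CTRL, 1 % STIM compared with 1 % CTRL, 1 % STIM compared with 5 % STIM and the interaction, and ranged from 3 to 5 for 5 % STIM compared with 5 % CTRL. Leaving out single libraries cost only Ptger1 its call (adjusted p up to 0.102, in 6 of 12 cases). The called interactions of pathway genes were 2 without the filter and 2 to 5 when single libraries were left out, with 2 without 5 % CTRL replicate 2 or 1 % STIM replicate 1, and 3 without 1 % CTRL replicates 2, 3, 4, 5 or 6, 5 % CTRL replicates 3 or 5, 1 % STIM replicates 3 or 5, or 5 % STIM replicate 4. The cause was not tested.

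Uncalled values near 0 changed sign. With libraries rescaled, log2 fold changes for 1 % CTRL compared with 5 % CTRL were 0.038 for Ptges, 0.028 for Ptges3, 0.054 for Ptgis and 0.048 for Pla2g4a, for 1 % STIM compared with 5 % STIM they were 0.030 for Ptges3 and 0.022 for Ptgis, and Ptgs1 was at 0.015 for 1 % STIM compared with 1 % CTRL. When single libraries were left out, 1 % CTRL compared with 5 % CTRL ranged from -0.12 to 0.11 for Ptges and -0.046 to 0.010 for Ptgis, and 1 % STIM compared with 1 % CTRL ranged from -0.027 to 0.016 for Ptgs1, -0.0045 to 0.053 for Ptgis and -0.011 to 0.038 for Pla2g4a. Ptges3 ranged from -0.0051 to 0.030 for 5 % STIM compared with 5 % CTRL, and Ptger1 from -0.017 to 0.12 for 1 % STIM compared with 5 % STIM. Interactions ranged from -0.065 to 0.027 for Ptges2, -0.0057 to 0.044 for Ptges3 and -0.058 to 0.0035 for Ptgis. Rescaling moved the median of all genes by under 0.1 on the log2 scale and the higher share of calls from 49.0 % to 62.7 % in 1 % CTRL compared with 5 % CTRL, 44.0 % to 62.1 % in 5 % STIM compared with 5 % CTRL, 51.4 % to 62.4 % in 1 % STIM compared with 1 % CTRL and 50.4 % to 63.2 % in 1 % STIM compared with 5 % STIM.

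The replicate block changed the call of 0 members. The correlation of deviations of same-numbered libraries ran from -0.148 to 0.155, with 2 of 36 pairs above 0.1. Of 24 libraries, 7 correlated best with their own number. These values do not show whether same-numbered cultures were handled together. With the block, 8730, 3190, 3320, 8350 and 1710 genes were called in the 5 comparisons, compared with 8708, 3115, 3245, 8346 and 1645. Without the filter, 1217 interactions were called. Genes such as Ptges and Ptger2 rest on too few reads to show moderate changes.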
